A study of Bos taurus with 12 samples.

Results

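PPARA, PPARGC1A and CPT1A, a receptor, a coactivator and an enzyme that take part in the liver's switch to burning fat, were followed in liver RNA from Holstein dairy calves. The 3 genes were chosen by identifier, as ENSBTAG00000008063 (PPARA), ENSBTAG00000017024 (PPARGC1A) and ENSBTAG00000021999 (CPT1A), out of 27570 identifiers in each table of read counts. All 3 had enough reads to be tested. The calves were kept in groups and were either cooled or left under heat stress after birth, up to weaning, and liver was taken by biopsy at 42 days of age. There were 6 cooled and 6 heat-stressed calves, with 1 library each, and breed, tissue and age were shared by both groups. Each difference is therefore heat-stressed against cooled, with no untreated calves among the libraries used here. Calf numbers only name the libraries within a group.

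PPARA is a nuclear receptor that binds fatty acids and switches on genes of fatty acid oxidation and ketone body production, mainly during fasting. PPARGC1A, also called PGC-1alpha, is a coactivator that binds PPARA and other receptors, and in fasted liver it is known for raising the output of oxidation and glucose production genes. CPT1A is the liver form of the carnitine palmitoyltransferase of the outer mitochondrial membrane, which commits long-chain fatty acids to oxidation in mitochondria, and it is a well-known PPARA target. Malonyl-CoA, the first product of fatty acid synthesis, inhibits the CPT1A protein, a control that mRNA levels do not show.

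Total counts ran from 24791222 to 31074009 in cooled and from 22910846 to 32240168 in heat-stressed calves. Cooled calves 2 and 3 were unusually alike, with a correlation of 0.990 across genes where the other 65 pairs of libraries ran from 0.940 to 0.977, so the group differences and the correlations over all calves were also computed with both summed into 1 library. On the first principal component of all tested genes, which held 31.5% of the variance, heat-stressed calves 1, 2 and 6 scored 43.8 to 55.7, the scores of cooled calves 1 and 6 were 13.8 and 10.3, and those of the remaining 7 calves lay between -32.8 and -18.1. The gene table at hand paired 0 of the 27570 identifiers with a name, so liver markers, markers of other cell types and the other genes of fatty acid oxidation were not analysed here. In tissue RNA, fewer cells of a type and less RNA per cell cannot be told apart.

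Neither the receptor, the coactivator nor the enzyme differed between heat-stressed and cooled calves beyond the spread between calves. The fitted level in heat-stressed calves was 0.961 times that in cooled calves for PPARA, 0.914 times for PPARGC1A and 0.910 times for CPT1A. At a Benjamini-Hochberg adjusted p under 0.05 in edgeR's quasi-likelihood test, 0 of the 3 genes were called, where 0% of all 14924 genes tested were. At an unadjusted p under 0.05 the count was again 0 of 3, where 9.37% of all genes tested passed, with 5.09% on the higher and 4.28% on the lower side in heat-stressed calves. With DESeq2, too, 0 of the 3 genes passed an adjusted p of 0.05, where 0.0615% of 21125 genes did, and 0 of 3 an unadjusted p of 0.05, where 7.84% of 21951 genes did.

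PPARA, the receptor, was measured with 1599 to 3614 reads per calf. It ran from 74.6 CPM (counts per total library, rescaled to a common size by TMM factors) over a median of 90.9 to 140.9 CPM in cooled calves. In heat-stressed calves it ran from 66.5 over a median of 99.9 to 113.6 CPM. The groups overlapped almost entirely: 5 of 6 heat-stressed calves lay inside the cooled range, and calf 3, at 66.5 CPM, lay below it. Cooled calves 5 and 6, at 140.9 and 114.0 CPM, had more PPARA mRNA than any heat-stressed calf. Cooled calf 1, at 77.8 CPM, was near the low end of its group. The mean was 98.2 CPM ± 25.1 (SD, n = 6) for the cooled group and 94.3 CPM ± 18.8 (SD, n = 6) for the heat-stressed group, while the heat-stressed median was 1.10 times the cooled one, so the mean and the median pointed in opposite directions. The log2 fold change was -0.06 (SE 0.183, edgeR adjusted p = 0.904), and an exact permutation test of mean log2 CPM over all assignments of the calves to the groups gave p = 0.807 (two-sided, unadjusted). The sign turned on single calves, the log2 fold change being 0.07 without cooled calf 5 and 0.02 without heat-stressed calf 3.

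PPARGC1A, the coactivator, had the fewest reads of the 3 genes, 403 to 952 per calf. In cooled calves it ran from 14.9 CPM over a median of 16.7 to 32.1 CPM, and in heat-stressed calves from 15.7 over a median of 17.1 to 23.7 CPM. All 6 heat-stressed calves lay inside the cooled range. Of the cooled calves, calf 1 stood at 32.1 CPM and calf 6 at 21.6 CPM, and the other 4 were at 14.9 to 17.1 CPM. Of the heat-stressed calves, calf 2 stood at 23.7 CPM and the other 5 were at 15.7 to 18.1 CPM. In each group, then, most calves were close together and 1 or 2 were higher. The mean was 19.7 CPM ± 6.54 (SD, n = 6) for the cooled group and 18.0 CPM ± 2.98 (SD, n = 6) for the heat-stressed group. The log2 fold change was -0.13 (SE 0.190, edgeR adjusted p = 0.776), with p = 0.697 in the exact permutation test. Over the fits that each lacked 1 calf, leaving out the highest calf of each group gave the extremes. The log2 fold change was 0.07 (SE 0.151) without cooled calf 1 and -0.23 (SE 0.193) without heat-stressed calf 2 (edgeR adjusted p = 0.850 and 0.771). Other calves moved it too, to -0.20 without cooled calf 2, the lowest calf.

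CPT1A, the enzyme, was measured with 5436 to 12633 reads per calf. Its level ran from 255.8 CPM over a median of 322.6 to 376.6 CPM in cooled calves. In heat-stressed calves it ran from 218.0 over a median of 286.6 to 399.3 CPM. Heat-stressed calves lay on both sides of the cooled range, with calf 4 above it at 399.3 CPM, calves 5 and 6 below it at 242.3 and 218.0 CPM, and the other 3 inside. The mean was 322.9 CPM ± 48.4 (SD, n = 6) for the cooled group and 294.0 CPM ± 65.9 (SD, n = 6) for the heat-stressed group. The log2 fold change was -0.14 (SE 0.170, edgeR adjusted p = 0.739), with p = 0.353 in the exact permutation test. Its sign was negative under all 23 alternatives, but its value moved with single calves: -0.24 when heat-stressed calf 4 was left out and -0.06 when heat-stressed calf 6 was, with an edgeR adjusted p of 0.465 and 0.951. With 1 surrogate variable, an estimated hidden factor, in the fit it was -0.04, where PPARGC1A had -0.23 and PPARA -0.14.

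**Figure D1:**
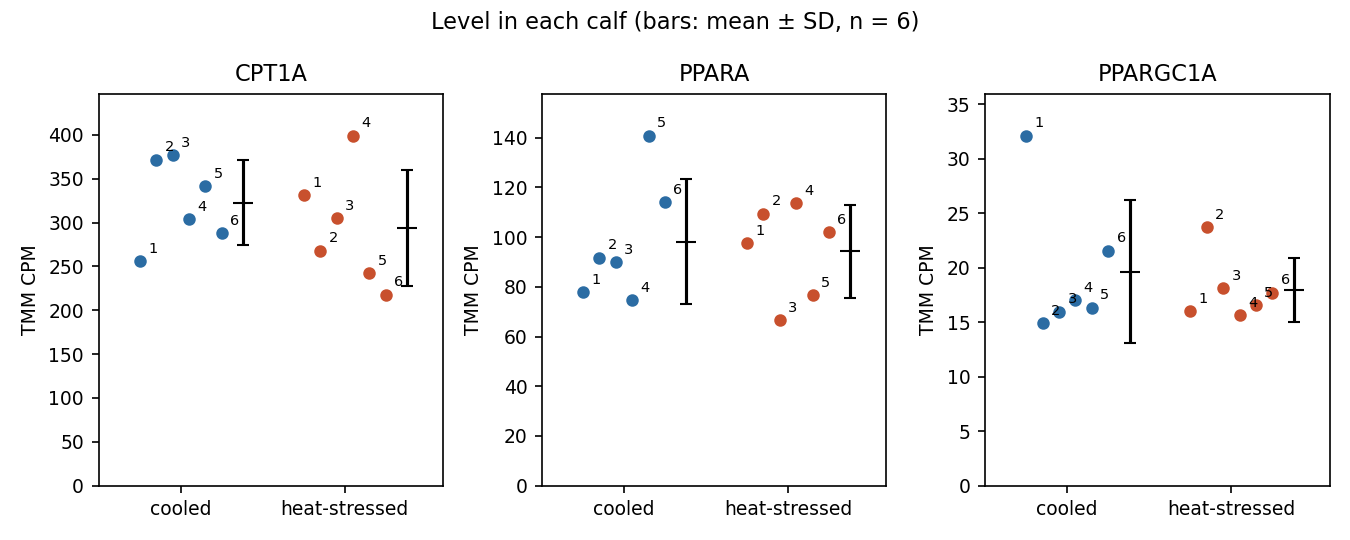
Level of CPT1A, PPARA and PPARGC1A in TMM CPM (y axis, from 0) in each of 6 cooled and 6 heat-stressed calves (x axis, points numbered by calf), with the group mean ± SD as a bar. The groups overlap for each gene, and PPARGC1A in cooled calf 1, at 32.1 CPM, stands above the other calves.

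With cooled calves 2 and 3 summed, the log2 fold change was -0.08 for PPARA, -0.19 for PPARGC1A and -0.09 for CPT1A (edgeR adjusted p = 0.910, 0.766 and 0.883).

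The intervals say how large a difference these 12 libraries leave room for. The 95% interval of the fold (heat-stressed over cooled, edgeR) ran from 0.733 to 1.26 for PPARA, from 0.690 to 1.21 for PPARGC1A and from 0.709 to 1.17 for CPT1A. Each lay within a 1.5-fold change either way, as did those of 37.7% of all genes tested. For PPARA this held in 20 of 20 alternative edgeR fits. For CPT1A it held in 19 of 20, the lower bound being 0.664 without heat-stressed calf 4. For PPARGC1A it held in only 13 of 20. With cooled calves 2 and 3 summed, the PPARGC1A interval began at 0.653, and without heat-stressed calf 2 at 0.642, so a fall beyond 1.5-fold was inside the interval there. These are intervals for single genes, not adjusted for the number of genes. They take the libraries as separate calves, so if cooled calves 2 and 3 share an animal they could be too narrow.

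Against all genes tested, the 3 fold changes were not large. The median size of the log2 fold change over all 14924 genes was 0.207, and a smaller change than that of the member was found for 33.0% of genes in CPT1A, 31.7% in PPARGC1A and 14.1% in PPARA.

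**Figure D2:**
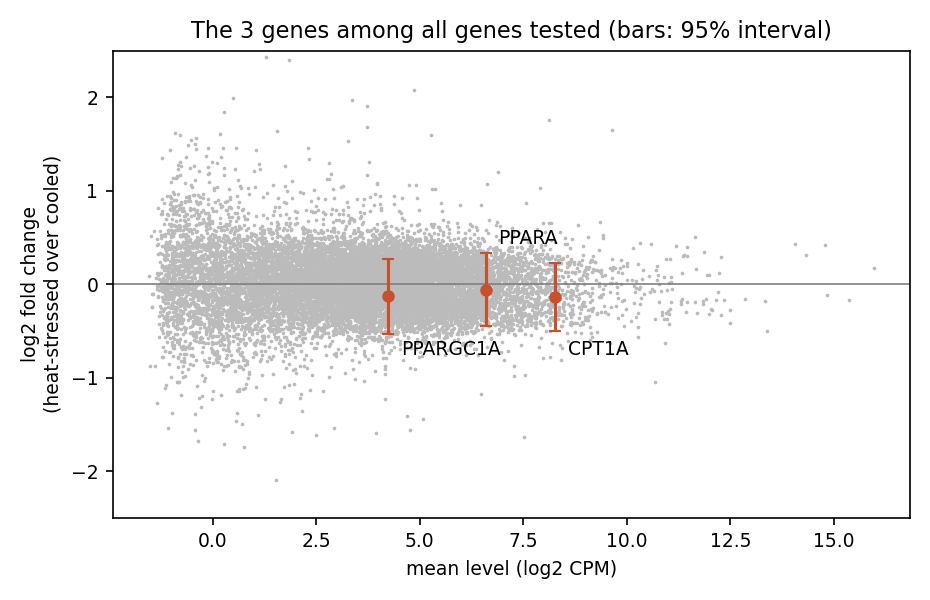
Log2 fold change of heat-stressed over cooled calves (y axis) against mean level in log2 CPM (x axis) for each gene tested (grey points), with the 3 genes in red and their 95% intervals as bars. The 3 intervals all include 0, and 2 other genes lie beyond the y axis.

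No pair of the 3 genes differed in its group difference beyond the spread between calves. This was tested on the ratio of a pair within each calf, which does not depend on how libraries are scaled. Genes differ in length, so the size of a ratio says nothing about which transcript was more abundant, and only the groups were compared. The CPT1A to PPARA log2 ratio was 1.74 ± 0.358 (SD, n = 6) in cooled and 1.64 ± 0.394 (SD, n = 6) in heat-stressed calves, which differ by -0.10 (p = 0.626, exact permutation test, two-sided). For CPT1A to PPARGC1A it was 4.07 ± 0.622 (SD, n = 6) and 4.01 ± 0.447 (SD, n = 6), a difference of -0.06 (p = 0.855, exact permutation test). For PPARA to PPARGC1A it was 2.33 ± 0.611 (SD, n = 6) and 2.38 ± 0.350 (SD, n = 6), a difference of 0.04 (p = 0.892, exact permutation test). With cooled calves 2 and 3 summed, the differences were -0.04, 0.04 and 0.09. Cooled calf 1 had the lowest CPT1A to PPARGC1A and PPARA to PPARGC1A ratios of the 12 calves.

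The spread between calves, not counting error, set the precision for each gene. With 1 library per calf, differences between animals and between library preparations cannot be told apart in this spread. Over the 12 calves the coefficient of variation was 18.5% for CPT1A, 22.1% for PPARA and 26.2% for PPARGC1A, where counting reads alone would give 1.08%, 1.93% and 4.36%. From the lowest to the highest calf the level rose 1.83-fold for CPT1A, 2.12-fold for PPARA and 2.16-fold for PPARGC1A. Variation of this size was usual for genes at these levels. The fitted biological coefficient of variation was 0.224 for CPT1A, 0.238 for PPARA and 0.245 for PPARGC1A, where the medians of genes at similar levels (within 0.5 in mean log2 CPM) were 0.251, 0.227 and 0.223.

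Whether calves of 1 group were more uneven than those of the other was tested on the distance of each calf from its group's median log2 CPM. The mean distance for PPARGC1A was 0.266 in cooled and 0.145 in heat-stressed calves (p = 0.621, two-sided exact permutation test), and without cooled calf 1 the difference turned to 0.02 in the other direction. For CPT1A it was 0.182 and 0.252 (p = 0.359, exact permutation test), and for PPARA 0.249 and 0.225 (p = 0.842, exact permutation test). Neither group was more uneven than the other beyond what reassigning these distances gives.

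**Figure D3:**
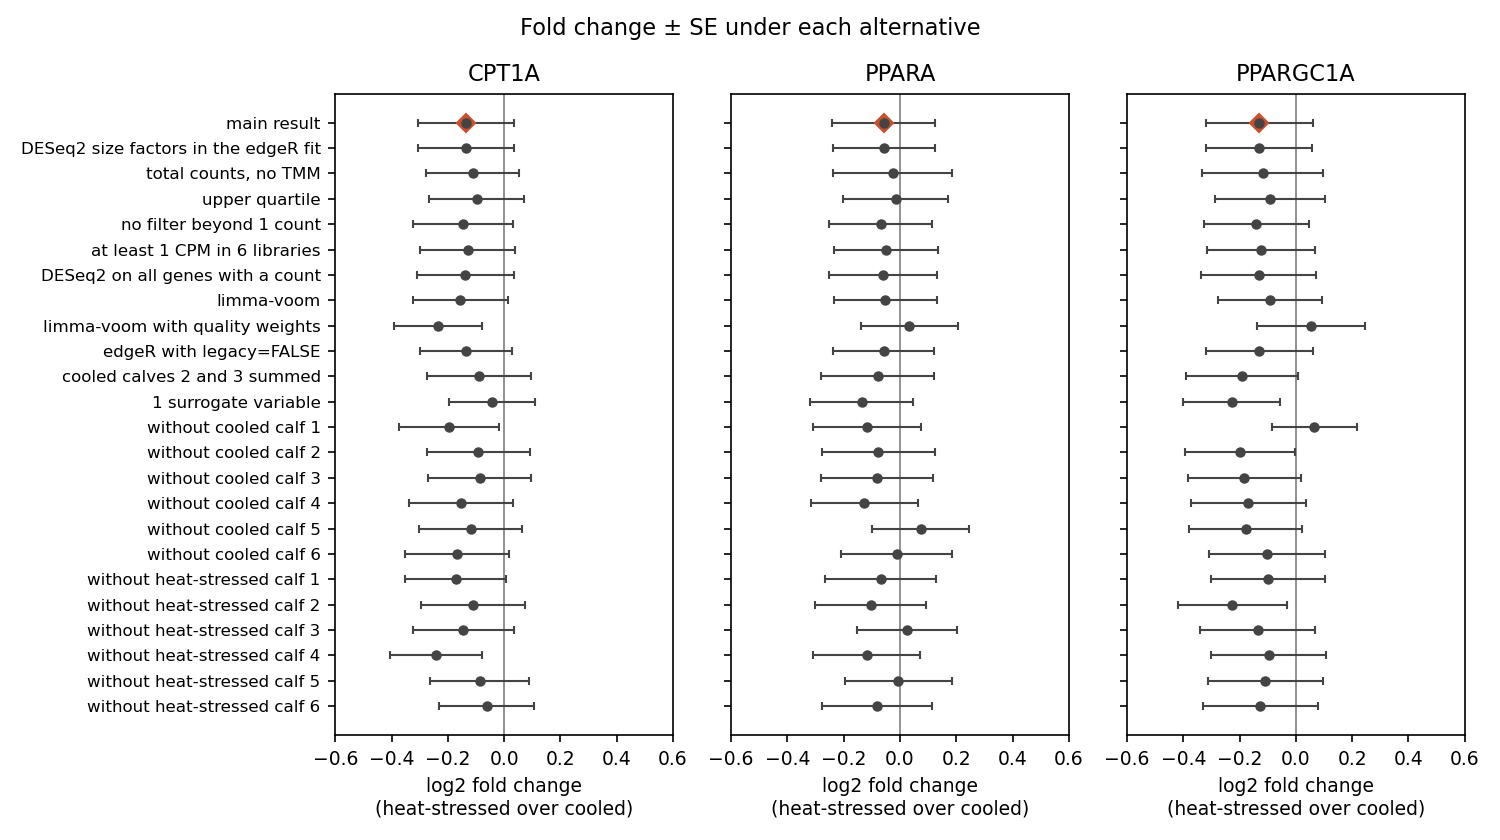
Log2 fold change of heat-stressed over cooled calves (x axis) with its SE (bars) for each gene under the main result (red diamond) and each of 23 alternatives (rows). CPT1A stays below 0 throughout, while PPARA and PPARGC1A cross 0 in 3 and 2 alternatives, among them limma-voom with quality weights.

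Between calves, the enzyme and the coactivator tended to run in opposite directions. In ranks, CPT1A and PPARGC1A were inversely related over the 12 calves (Spearman rho = -0.755, permutation p = 0.00617, adjusted over the 3 pairs 0.0185). On log2 CPM itself the relation did not pass the test (Pearson r = -0.526, permutation p = 0.0750, adjusted 0.225). Without heat-stressed calves 4 and 6, which had the most extreme CPT1A levels, r was -0.651 (permutation p = 0.0371, unadjusted). Without cooled calf 1, the highest in PPARGC1A, r was -0.512 (permutation p = 0.105, adjusted 0.316). Cooled calf 1, heat-stressed calf 2 and cooled calf 6, the 3 calves highest in PPARGC1A, had CPT1A at 255.8, 267.9 and 288.0 CPM, below the median of 304.6 CPM over all calves. The 3 calves highest in CPT1A, heat-stressed calf 4 and cooled calves 3 and 2, had PPARGC1A at 15.7, 16.0 and 14.9 CPM. Heat-stressed calves 5 and 6 were the lowest in CPT1A, but their PPARGC1A was not among the highest. It stood at 16.6 and 17.7 CPM, below and above the median of 16.8 CPM over all calves.

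That relation depended on the scaling. With libraries scaled by total counts, in place of TMM factors, rho was -0.336 (permutation p adjusted over the 3 pairs 0.394) and r was -0.353. The TMM factors themselves ran from 0.867 to 1.09. With cooled calves 2 and 3 summed, rho was -0.700 (permutation p = 0.0203, adjusted 0.0610), about as large and inside the range given by leaving out single calves. Leaving out 1 calf at a time gave rho from -0.855 (without heat-stressed calf 5) to -0.691 (without cooled calf 5, or without heat-stressed calf 1), with adjusted permutation p from 0.00480 to 0.0679. The adjusted p was above 0.05 without cooled calf 2, 3 or 5 and without heat-stressed calf 1 or 4.

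Within the groups the same relation was seen in cooled calves (r = -0.906, exact permutation p = 0.00278; rho = -0.943, exact p = 0.0167; n = 6), where the alike cooled calves 2 and 3 are 2 of the 6 points. If they share an animal, 5 calves remain, too few for a correlation, and this p is too small. In heat-stressed calves it did not pass the test (r = -0.372, exact permutation p = 0.493; rho = -0.543, exact p = 0.297; n = 6). The difference between the groups was not tested. The within-group p-values, here and for the other pairs, are unadjusted. These within-group correlations were run with TMM factors only and with no calf left out. Cooled calf 1, the highest in PPARGC1A, is among the cooled points. The 5 calves with positive scores on the first principal component had CPT1A from 218.0 to 331.0 CPM and PPARGC1A from 16.0 to 32.1 CPM. The other 7 had CPT1A from 242.3 to 399.3 CPM and PPARGC1A from 14.9 to 18.1 CPM. The part of that component in the relation was not tested. Among all genes, 80.0% had a weaker Pearson correlation with CPT1A, of either sign, than PPARGC1A did. Seen from PPARGC1A, 90.3% had a weaker one with it than CPT1A did. Rank correlations were not placed among all genes.

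No relation of PPARA with its coactivator or its target gene passed the test. Its correlation with CPT1A was r = 0.240 (permutation p = 0.453, adjusted 0.680) and rho = 0.196 (permutation p = 0.545, adjusted 0.733) over 12 calves. With total counts these were r = 0.401 and rho = 0.448 (permutation p adjusted over the 3 pairs 0.394 for each). Without heat-stressed calves 4 and 6, r was 0.272 (permutation p = 0.446). Its correlation with PPARGC1A was r = -0.128 (permutation p = 0.693, adjusted 0.693) and rho = -0.112 (permutation p = 0.733, adjusted 0.733). Without cooled calf 5 and heat-stressed calf 3, r was -0.07 (permutation p = 0.866). Within cooled calves PPARA and CPT1A had r = 0.268 (exact permutation p = 0.589, n = 6), and within heat-stressed calves r = 0.207 (exact permutation p = 0.682, n = 6). For PPARA and PPARGC1A these were r = -0.280 (exact permutation p = 0.575, n = 6) and r = 0.145 (exact permutation p = 0.819, n = 6). At 12 calves these values leave room for moderate relations in either direction.

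**Figure D4:**
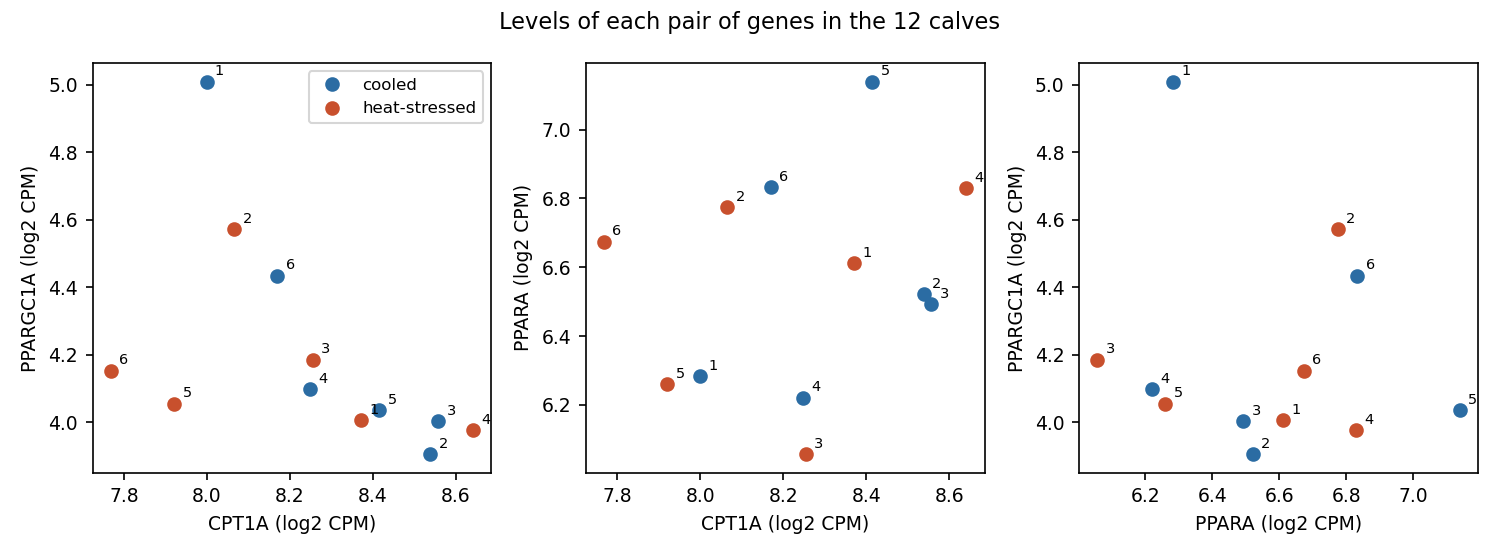
Log2 CPM of 1 gene against another for the 3 pairs of CPT1A, PPARA and PPARGC1A (x and y axes), with 1 point per calf numbered within its group, cooled in blue and heat-stressed in red. PPARGC1A is high where CPT1A is low in cooled calves 1 and 6 and heat-stressed calf 2. No correlation of PPARA with either gene passed the test.

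The genes most like each of the 3 in their pattern over calves are given by identifier. By Pearson correlation over the 12 calves, out of 14921 genes, ENSBTAG00000005462 (r = 0.948) and ENSBTAG00000011912 (r = 0.944) were most like PPARA. For CPT1A they were ENSBTAG00000015190 (r = 0.901) and ENSBTAG00000013138 (r = 0.898). For PPARGC1A they were ENSBTAG00000025856 (r = 0.858) and ENSBTAG00000045966 (r = 0.834). The libraries, their depth and their scaling are shared by these pairs, and each is the top of a search over all genes, so the values are a description. With cooled calves 2 and 3 summed they ran from 0.824 to 0.948. For both PPARGC1A neighbours the rank correlation was lower, 0.713 and 0.769. These identifiers have no gene name here, and their edgeR adjusted p between the groups ran from 0.670 to 0.946.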

How the data were processed

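Liver RNA from 12 calves was sequenced, and the authors deposited 1 table of whole-number read counts per gene for each calf, not normalized. Per the submitters' processing notes, HISAT2 and HTSeq were used with ARS-UCD1.2, after FastQC 0.11.7 and Trim Galore 0.4.4. The annotation, strand setting and other versions are not stated in these sources, so reads of overlapping or antisense genes may be shared.

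Groups follow the treatment label. The series text counts 6 calves per group and names no batch. Where libraries share an animal, p-values measure a partly technical spread. In R 4.3.3 with edgeR 4.0.16, filterByExpr kept 14924 of 27570 genes (54.1%). TMM factors, estimateDisp, glmQLFit and glmQLFTest were then applied, and p-values were adjusted by Benjamini-Hochberg over the whole table (threshold 0.05). Standard errors and 95% intervals came from the fold change, the F statistic and its degrees of freedom. A prior count of 2 was added for log2 CPM. Permutation tests on log2 CPM were run in Python 3.11.15, exactly for groups (smallest two-sided p 0.00216) and with 100000 resamples for correlations over 10 or more calves. The alternatives drew on limma 3.58.1, sva 3.50.0 and DESeq2 1.42.0. Scripts were tested on simulated data.

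The 3 genes, the tests and the lists were chosen with earlier results of these data known. Named besides them are the 2 identifiers most correlated with each gene, since 0 identifiers matched a symbol. For that reason the pathway and cell marker lists were not run. No sequence of the 3 genes was used here.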

Additional observations from a re-analysis of the deposited data

Results flagged for a closer look

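PPARGC1A in heat-stressed calves had 1 calf far from the rest. Calf 2 stood at 23.7 CPM, and the next highest, calf 3, at 18.1 CPM. This gap was 0.694 of the range of the 6 calves, above Dixon's critical value at the 95% level for 6 samples. On log2 CPM the gap was 0.648 of the range. In cooled calves the gap below calf 1 was 0.614 of the range, just under that value. Of 6 sets of 6 calves (3 genes in 2 groups) this was the only one above it, and chance gives about 1 set in 20. Heat-stressed calf 2 had 652 PPARGC1A reads, a TMM factor of 1.08 and a first component score of 43.8, and heat-stressed calves 1 and 6, with factors of 1.09 and 1.09 and scores of 52.3 and 55.7, had PPARGC1A at 16.0 and 17.7 CPM.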

How the results depend on the processing

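The group differences of the 3 genes stayed short of an adjusted p of 0.05 under every alternative run, with adjusted p from 0.318 to 0.954 for CPT1A, from 0.759 to 0.990 for PPARA and from 0.711 to 0.920 for PPARGC1A. Directions were less stable. With limma-voom quality weights the log2 fold change was 0.034 for PPARA and 0.054 for PPARGC1A. Over the fits that each lacked 1 calf it ran from -0.24 to -0.062 for CPT1A, from -0.13 to 0.073 for PPARA and from -0.23 to 0.065 for PPARGC1A. In mean log2 CPM the same ranges were -0.25 to -0.070, -0.12 to 0.063 and -0.17 to 0.063. For the ratios they were -0.22 to 0.0051 (CPT1A to PPARA), -0.28 to 0.050 (CPT1A to PPARGC1A) and -0.17 to 0.20 (PPARA to PPARGC1A). With cooled calves 2 and 3 summed the CPT1A to PPARGC1A difference was 0.043. For the difference in spread they were 0.0092 to 0.12 (CPT1A), -0.11 to 0.055 (PPARA) and -0.20 to 0.020 (PPARGC1A), and with total counts that of PPARA was 0.037. For PPARA and PPARGC1A, r was 0.202 and rho 0.273 with total counts, and without 1 calf r was -0.226 to 0.157 and rho -0.300 to 0.027. For CPT1A and PPARGC1A, rho was -0.336 with total counts and -0.700 with cooled calves 2 and 3 summed, against -0.855 to -0.691 without 1 calf, and r was -0.353 with total counts and -0.663 to -0.472 without 1 calf. For CPT1A and PPARA, r was 0.125 to 0.367 and rho 0.045 to 0.318 without 1 calf, and 0.401 and 0.448 with total counts. The cause was not tested. Over all genes, 0 higher and 0 lower became 7 and 6 with DESeq2 on all genes with a count, which changes the filter along with the tool, and 0 to 1 and 0 without 1 calf, the 1 without heat-stressed calf 3. The 1399 genes at unadjusted p under 0.05 became 4126 with limma-voom quality weights and between 841 (heat-stressed calf 6 left out) and 2578 (heat-stressed calf 3 left out) without 1 calf. No paired analysis was possible because numbers were given to calves only as names. At 403 reads or more per calf, counting error was small beside the spread between calves, and SEs were 0.170 to 0.190 in log2.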
